A study of Mus musculus with 5 samples.

Results

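The genes described here are the germline variable segments of the alpha and beta chains of the T cell receptor. They were taken by name: every annotated gene beginning with Trav or Trbv, which gave 165 of the 57186 annotated gene IDs in each library. Of these, 130 were Trav segments and 35 were Trbv segments. By gene type, 132 were variable genes and 33 were pseudogenes. RNA-seq had been carried out on splenic follicular regulatory T (Tfr) cells, a CD4 T cell type that expresses Foxp3 and restrains germinal centre B cells. There were 3 WT libraries and 2 Cebpa_KO libraries. The WT mice carried a GFP reporter of Foxp3. In the Cebpa_KO mice, a Cre driven by Foxp3 acted on Cebpa-flox/flox alleles, so that the loss of Cebpa, the gene of a basic leucine zipper transcription factor, was directed to regulatory T cells. The groups thus also differed in the allele carried at Foxp3. All mice had received imiquimod, a TLR7 agonist, and cells were sorted at 21 days as live cells positive for CD4, Foxp3, CXCR5, PD-1 and ICOS. Each library pooled cells of more than 2 mice, and p-values therefore reflect how pools varied. No age, sex or strain is stated in the labels.

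Each alpha beta T cell assembles its receptor genes in the thymus by joining 1 variable segment to a joining segment, with a diversity segment between them in the beta chain. The rearranged gene is transcribed with its constant gene, Trac for alpha and Trbc1 or Trbc2 for beta. In bulk RNA the summed reads of a segment therefore reflect how many cells carry it and how much receptor RNA each cell holds, and these cannot be told apart here. A level below is a TPM (a relative abundance of transcripts corrected for length and library size) divided by a scaling factor of the library. A share, or usage, is the TPM of a segment as a percentage of the summed TPM of all segments of its chain.

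The 5 libraries held 6.76 to 7.08 gigabases of aligned sequence. Cebpa stood between 12.8 and 17.7 in WT libraries, against 0.317 and 0.550 in Cebpa_KO ones. The sorted identity was checked against its markers. Cd4, Cxcr5, Pdcd1 and Icos were present in every library, between 141 for Cxcr5 and 762 for Pdcd1. Foxp3 stood at 83.0, 107 and 105 in WT but at 6.74 and 5.58 in Cebpa_KO, so the level of this defining marker goes against the Tfr label of the Cebpa_KO libraries. Of the 8 Tfr markers tested, 6 were lower in Cebpa_KO, which were Foxp3, Cxcr5 (WT mean 276, against 161), Icos (317 against 192), Ctla4 (476 against 264), Bcl6 (50.1 against 27.2) and Il2ra (71.0 against 48.6). Cd4 and Pdcd1 were not called. The groups also differed in Y-linked RNA, with 4 summed genes between 151 and 162 in WT and at most 0.0311 in Cebpa_KO. Xist, the RNA of the inactive X chromosome, was at 0.00295 to 0.0220 in WT libraries, against 11.4 and 10.7 in Cebpa_KO ones, so that genotype and these sex-linked RNAs cannot be told apart. WT replicate 3 stood apart from the other WT libraries. Its Hspa1a, a heat shock gene, was at 690.3 against 0.911 and 0.684 in WT replicates 1 and 2, and the Cebpa_KO libraries were at 1147 and 1238. B and plasma cell markers summed to 86.4 to 568 in WT and to 391 and 101 in Cebpa_KO. Neutrophil markers summed to 8.63 to 63.1 in WT and to 271 and 56.5 in Cebpa_KO, and none of the 4 passed the test. Cd8a, the defining coreceptor gene of CD8 T cells, did not exceed 0.200, but Cd8b1, its partner chain, stood at 14.7 to 23.5 over the 5 libraries. Gzmk, a granzyme gene, and Eomes, a transcription factor gene of cytotoxic cells, ranged from 1.54 to 45.2 and from 3.80 to 34.1, each highest in WT replicate 3. The CD8 list summed to 30.8 to 96.8 in WT and to 47.7 and 34.4 in Cebpa_KO, and none of its 3 tested genes was called. The part of these differences in the results below was not tested.

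The 3′ ends of the 8 beta segments of highest mean share are shown because together they held 63.1% to 69.2% of beta usage in each library. They come from the GENCODE M21 gene models (GRCm38, sense strand). The models end near the codon of the conserved cysteine at which the third complementarity determining region begins. Capitals mark TGTGC, the letters of that codon and the start of the next one.
Trbv13-2: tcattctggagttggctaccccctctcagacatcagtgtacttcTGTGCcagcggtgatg
Trbv12-2: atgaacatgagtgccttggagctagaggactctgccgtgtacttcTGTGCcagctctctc
Trbv16: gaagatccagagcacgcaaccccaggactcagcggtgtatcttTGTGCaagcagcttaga
Trbv3: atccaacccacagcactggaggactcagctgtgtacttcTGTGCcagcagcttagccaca
Trbv5: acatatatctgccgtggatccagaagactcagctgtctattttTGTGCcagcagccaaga
Trbv12-1: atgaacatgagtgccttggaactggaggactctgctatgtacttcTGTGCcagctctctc
Trbv13-1: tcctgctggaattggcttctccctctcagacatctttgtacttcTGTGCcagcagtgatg
Trbv13-3: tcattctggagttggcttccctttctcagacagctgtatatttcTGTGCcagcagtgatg
The string TGTGC was found on the sense strand in the last 40 bases of 20 of 23 tested Trbv models and 91 of 116 tested Trav models. On either strand it was found in 87.0% and 78.4% of them, against 7.35% of all other M21 transcripts. The search covered both strands of these letters alone, and the match describes the models without bearing on their expression.

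Many Trav segments exist as near copies, because a stretch of the locus is duplicated in the reference genome and the letters d and n in a name mark its 2 repeats. A pair of copy sets is shown because results below turn on whether the copies could be told apart. Capitals mark the bases at which the unlettered copy differs from the D copy within the last 120 bases.
Trav14-1: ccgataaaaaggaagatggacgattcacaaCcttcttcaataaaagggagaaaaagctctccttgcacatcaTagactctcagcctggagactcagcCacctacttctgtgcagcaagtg
Trav14d-1: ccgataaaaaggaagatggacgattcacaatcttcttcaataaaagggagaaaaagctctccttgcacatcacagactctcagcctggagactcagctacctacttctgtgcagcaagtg
Trav7-6: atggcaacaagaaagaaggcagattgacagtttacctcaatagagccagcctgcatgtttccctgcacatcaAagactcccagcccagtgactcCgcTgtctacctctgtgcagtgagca
Trav7d-6: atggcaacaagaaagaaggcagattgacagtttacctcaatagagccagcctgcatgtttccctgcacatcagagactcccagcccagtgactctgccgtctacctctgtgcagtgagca
Trav14-1 and Trav7-6 each differed from their D copy at 3 of these bases. Trav14n-1 and Trav7n-6 had the same letters as Trav14d-1 and Trav7d-6. Trav12-2 had the highest WT mean among the alpha segments that fell, with each copy counted separately. It ended as follows, with TGTGC in capitals.
Trav12-2: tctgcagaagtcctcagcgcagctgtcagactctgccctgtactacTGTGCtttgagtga

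The alpha segments lay on chromosome 14, from 52665385 to 54215135 in mm39, and all 130 were on the plus strand. The beta segments lay on chromosome 6 from 40868163 to 41535386, with 34 on the plus strand and 1, Trbv31, on the minus strand, beyond the constant genes. With a filter that asked for a TPM of 1 or more in 2 or more of the 5 libraries, 116 Trav and 23 Trbv segments were tested. Of the variable genes, 109 of 110 Trav and 22 of 22 Trbv passed, the exception being Trav23, whose highest level was 1.01. Of the pseudogenes, 7 of 20 Trav and 1 of 13 Trbv passed. Pseudogenes together took 1.19% to 1.77% of the alpha usage and 0.360% to 0.481% of the beta usage in the 5 libraries. The segments that did not pass reached a TPM of at most 1.11 in any library.

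Beta usage was concentrated in few segments, with the same segment in the lead in every library. Trbv13-2 (chr6:41098330-41098766) had the highest share in every library, at 13.4%, 13.8% and 15.3% in WT libraries, against 15.4% and 15.9% in Cebpa_KO ones. Its shares in the 2 Cebpa_KO libraries lay above all WT shares, by 1.48 points on the mean, but the fit of shares did not call it (limma adjusted p = 0.296). By mean share Trbv12-2 followed, with 8.78% to 10.9% in WT libraries, against 9.09% and 8.74% in Cebpa_KO ones. In WT replicate 1 its share was below those of Trbv16 (9.12%) and Trbv3 (8.91%). Trbv16, Trbv3 and Trbv5 ranged from 7.77% to 9.12%, from 7.38% to 8.91% and from 5.72% to 8.42% over the 5 libraries. The 5 leading segments of a library held 46.3% to 51.1% of its beta usage, and 5 or 6 segments were enough for 50%. By family, Trbv13 took 23.2% to 29.5% and Trbv12 took 12.8% to 18.8%. Trbv31, the inverted segment, took 2.80% to 4.07%, and its groups overlapped. Trbv24, the pseudogene that passed the filter, took 0.288% to 0.437%.

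**Figure D1:**
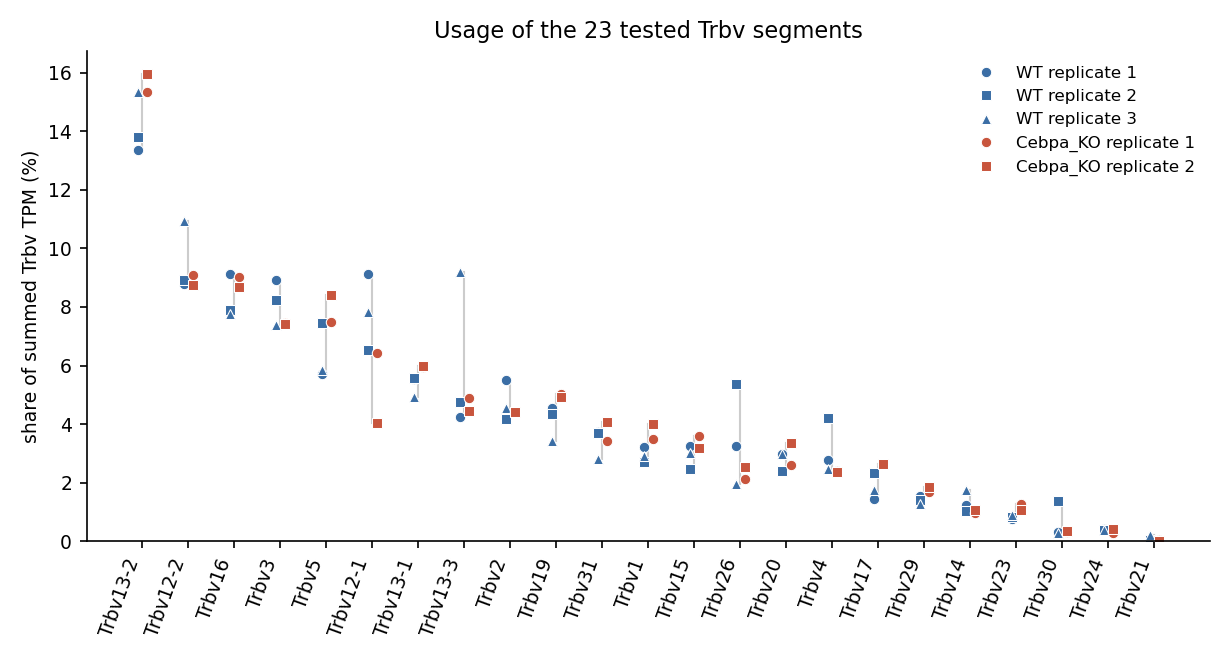
Share of each tested Trbv segment in the summed Trbv TPM of its library, in percent, ordered by the mean over the 5 libraries. Each point is 1 library and grey lines span the range. Trbv13-2 is highest in all 5 libraries, and WT replicate 3 (Trbv13-3, 9.20%) and WT replicate 2 (Trbv26, 5.36%) hold the most isolated points.

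Alpha usage was spread over many more segments. With each annotated segment counted separately, no Trav segment exceeded 4.38% in any library, and 22 to 26 segments were needed for 50%. These counts, and the ranks below, do not add up copies with identical gene models. Trav4d-4 and Trav4n-4, for example, share 1 model and took 3.62% and 3.61% in WT replicate 2. The highest mean shares were those of Trav3-3 (4.00%, 2.65% and 3.22% in WT, 2.97% and 3.50% in Cebpa_KO), Trav12-2 and Trav4-4-dv10. The leading segment differed between libraries: Trav7-4 led in WT replicate 3 with 3.75% and in Cebpa_KO replicate 2 with 4.38%. Trav7, the family with the largest share, took 15.8% to 20.4%, and Trav4 took 11.4% to 13.6%. Along the locus, the 8 segments before the duplicated stretch took 2.31% to 2.87% in WT libraries, against 3.35% and 3.68% in Cebpa_KO ones, which do not overlap and were not tested as a group. The 40 D segments took 26.1% to 27.3% and the 34 N segments took 22.8% to 24.3% in the 5 libraries. The 48 segments after them took 46.1% to 48.2%.

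**Figure D2:**
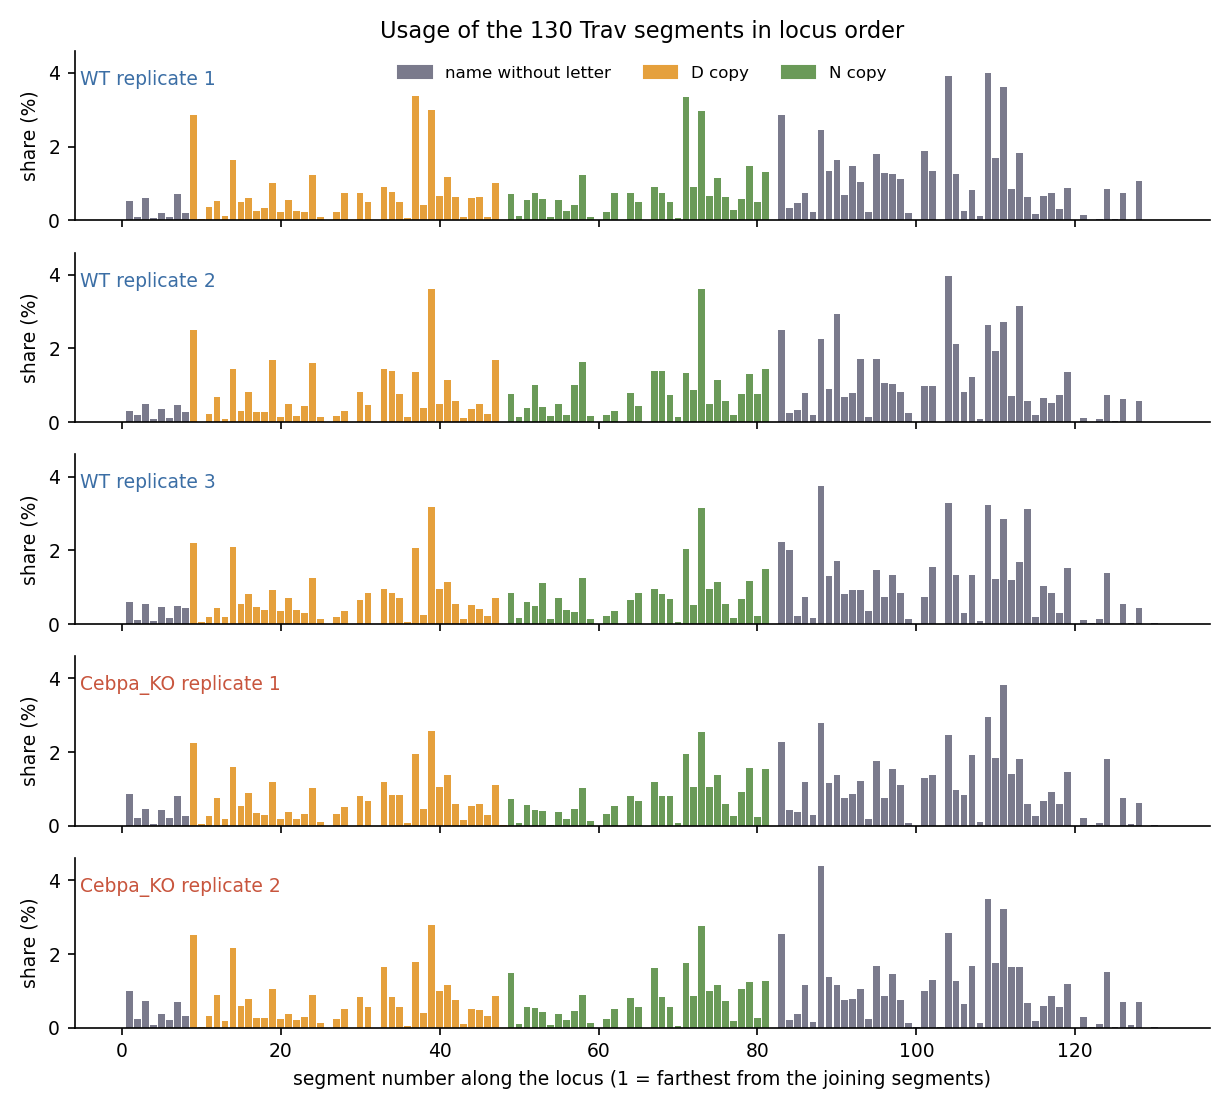
Share of each of the 130 Trav segments in the summed Trav TPM of its library, in percent, with segments in the order of the locus and 1 panel per library. Colours mark D copies, N copies and segments without a letter. The first 8 segments sum to 2.31% to 3.68% of usage, and the same tall bars return in the D and N stretches.

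Copies with identical gene models gave nearly the same value. Such models were shared by 17 pairs of Trav segments, or 34 segments. In 15 of these pairs both copies reached a TPM of 1 in each library. Their levels were a median of 1.01-fold apart within a library and at most 1.14-fold apart. Reads of such copies cannot be told apart, so that each pair is 1 measurement, and the 139 tested segments held 124 distinct models. Pairs whose models differed were mostly further apart, at a median of 1.71-fold for D against N copies. In all libraries, 2 of 15 such D against N pairs and 2 of 61 pairs with an unlettered copy stayed within 1.1-fold. Trav12d-3 and Trav12n-3, for example, had no mismatch over 250 compared bases. The 124 models are therefore not all separate measurements. With identical D and N copies counted once, there were 48 pairs of an unlettered copy with a D or N copy of another model. The unlettered one was higher in all 5 libraries in 27 pairs and lower in all 5 in 1 pair. Where D and N copies share a model, the unlettered copy was set against the value of only 1 of them. How reads were divided between such copies is not stated, so the tally does not rank how much the copies were used.

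**Figure D3:**
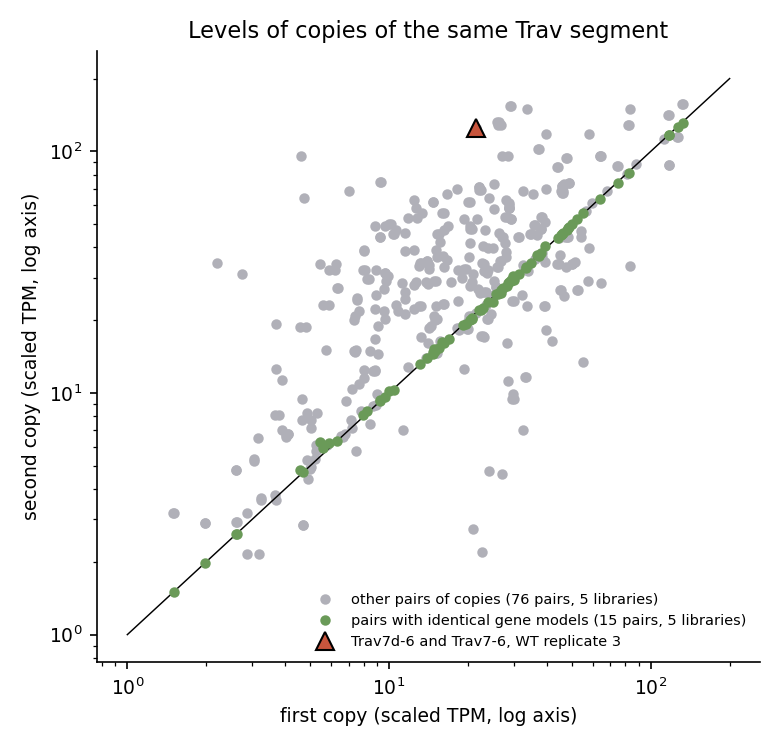
Level of 1 copy of a Trav segment against another copy of it, in scaled TPM on log axes, with 1 point per pair and library and a line of equality. The 15 pairs with identical models lie on the line, while Trav7-6 in WT replicate 3 (125, against 21.4 for Trav7d-6) lies far above it.

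The amount of alpha segment RNA was lower in Cebpa_KO. Summed Trav levels were 3931, 3239 and 4003 in WT libraries, against 2497 and 2696 in Cebpa_KO ones, and the groups did not overlap. The Cebpa_KO mean was 69.7% of the WT mean, a difference of -0.52 on the log2 scale. Summed Trbv levels were 3716, 3281 and 3674 in WT libraries, against 2803 and 2760 in Cebpa_KO ones, again without overlap, with a Cebpa_KO mean of 78.2% of WT and a log2 difference of -0.35. A two-sided exact permutation test over the 10 splits gave p = 0.1 for either sum, the smallest value that 3 against 2 libraries allow. Without WT replicate 3 the log2 differences were -0.46 for Trav and -0.33 for Trbv.

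The constant genes and the signalling chains were measured beside the segments. Trac stood at 4861, 4452 and 5093 in WT libraries, against 3454 and 3442 in Cebpa_KO ones, and its log2 difference was -0.48 ± 0.11 (SE), a fall that passed the test (limma adjusted p = 0.0388). The differences of Trbc1 and Trbc2, -0.26 and -0.29 in log2, missed the threshold (limma adjusted p = 0.193 and 0.117). Of the 4 CD3 complex genes, which carry the receptor signal into the cell, Cd3d and Cd3e fell, with log2 differences of -0.62 and -0.43 (limma adjusted p = 0.0258 and 0.0410). Cd3g and Cd247 had differences of -0.44 and -0.29 that did not pass. Cd4, the coreceptor of these cells, had a difference of -0.26 (limma adjusted p = 0.0638). The ratio of summed Trav to Trac was 0.809, 0.728 and 0.786 in WT libraries, against 0.723 and 0.783 in Cebpa_KO ones, so that these groups overlapped. The ratio of summed Trbv to the 2 Trbc genes was 0.508, 0.526 and 0.538 in WT libraries, against 0.507 and 0.489 in Cebpa_KO ones, with Cebpa_KO lower by 0.0258 (exact permutation p = 0.2). Rag1 and Rag2, the recombinase genes of developing lymphocytes, did not exceed 0.021 in any library.

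**Figure D4:**
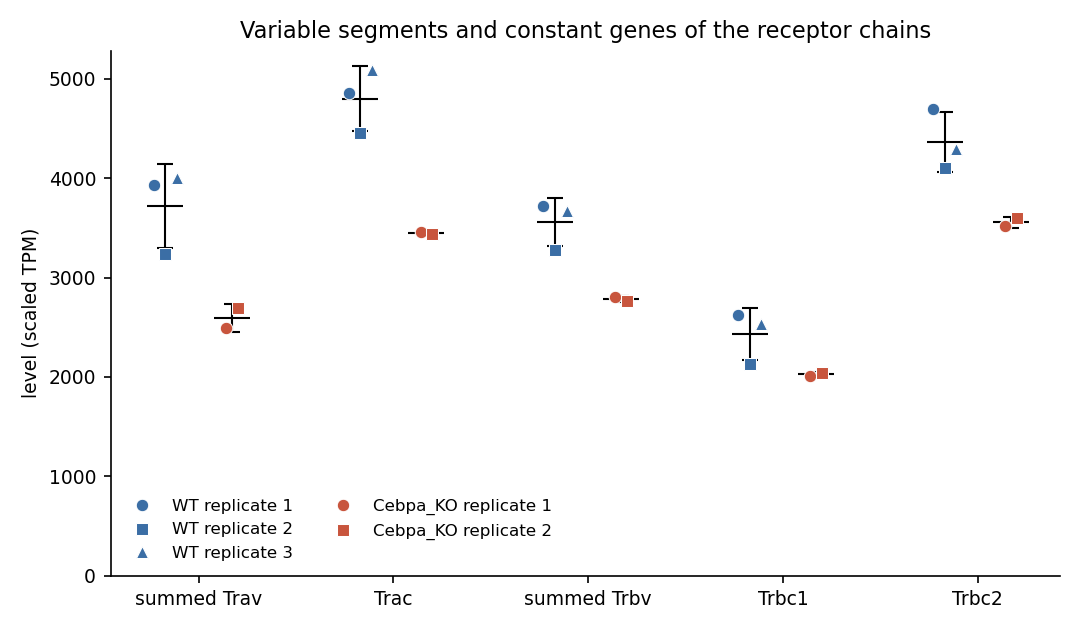
Level in scaled TPM of the summed Trav segments, Trac, the summed Trbv segments, Trbc1 and Trbc2. Points are libraries, and black marks give the mean and SD of 3 WT and 2 Cebpa_KO libraries. Every Cebpa_KO point lies below every WT point of the same quantity.

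Among single segments, 17 were lower in Cebpa_KO and 0 were higher in the fit of levels (limma adjusted p under 0.05 over 16254 genes). They were 15 of 116 Trav and 2 of 23 Trbv segments, with 14 distinct models. The 17 are 12.2% of the 139 tested segments, against 9.82% of all tested genes called lower, and 9.93% of all tested genes were called higher. The share of segments called lower was thus near the background. At an unadjusted p under 0.05 the counts were 39 lower and 0 higher. Of all 16254 tested genes, 6113 were under that limit in either direction. Of the 139 segments, 122 had a negative difference (87.8%, against 49.1% of all tested genes), and their median was -0.39, against 0.01. In 63 segments (45.3%) both Cebpa_KO libraries lay below all WT libraries, against 28.0% of all tested genes. These shares count both copies of each pair with identical models, so that the 139 segments are not separate measurements. The median was -0.39 for Trav and -0.26 for Trbv.

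**Figure D5:**
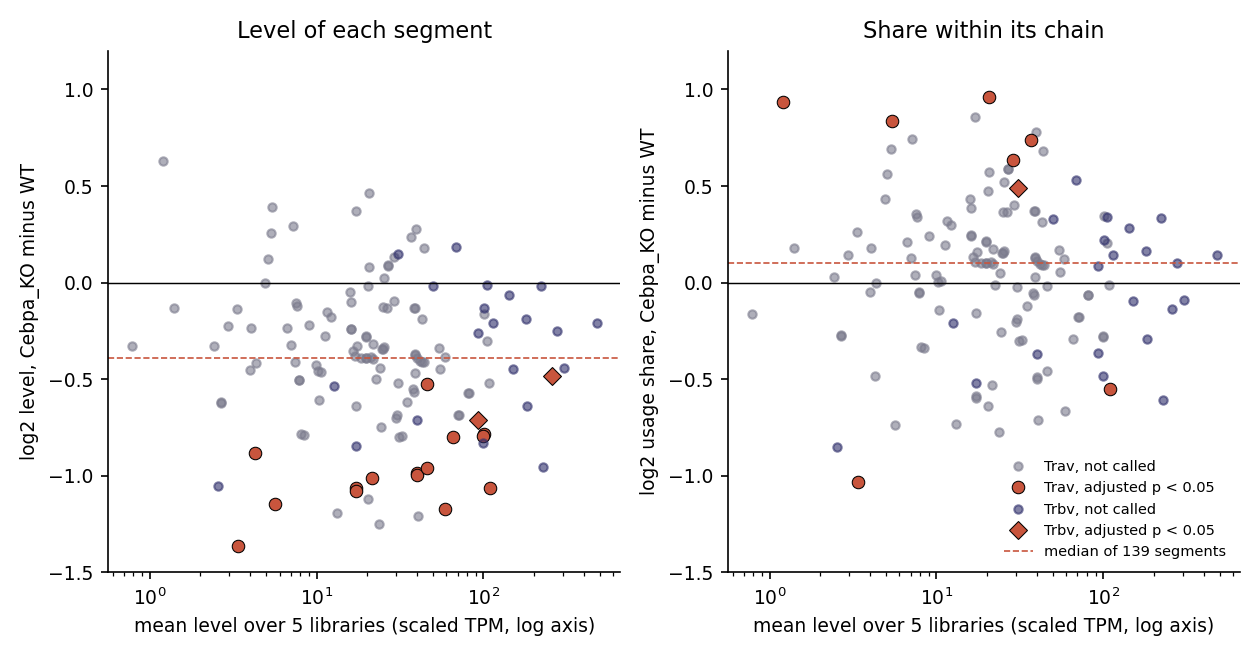
Log2 difference of Cebpa_KO minus WT against the mean level in scaled TPM (log axis) for the 139 tested segments, for levels on the left and for shares within the chain on the right. Red symbols passed limma at an adjusted p under 0.05 and the dashed lines are medians. Levels centre on -0.39, while shares centre on 0.10.

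Trav12-2 (chr14:53853772-53854371) had the highest WT mean of the alpha segments that fell, with identical copies counted separately. It stood at 154, 128 and 132 in WT libraries, against 61.8 and 69.2 in Cebpa_KO ones, so that the highest Cebpa_KO library was well below the lowest WT library. The difference was -1.06 ± 0.11 (SE) on the log2 scale (limma adjusted p = 0.00758). Trav14d-1 and Trav14n-1, which share 1 model, had the smallest p. Trav14d-1 stood at 48.3 to 52.2 in WT libraries, against 25.7 and 23.9 in Cebpa_KO ones, a difference of -0.99 ± 0.09 (limma adjusted p = 0.00643). Their unlettered copy Trav14-1, with 44.2, 26.7 and 34.3 in WT libraries, against 27.5 and 20.3 in Cebpa_KO ones, overlapped between groups and was not called. The difference between the copies in their response was not tested. Trav4d-4 and Trav4n-4 also share 1 model, and Trav4d-4 stood at 117, 117 and 127 in WT libraries, against 64.2 and 75.0 in Cebpa_KO ones (log2 difference -0.78, limma adjusted p = 0.0106). Trav4-4-dv10 had a difference of -0.30 with overlapping groups. Trav9-1 stood at 64.3, 95.4 and 68.7 in WT libraries, against 34.6 and 31.0 in Cebpa_KO ones, a difference of -1.17.

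Among the weaker signals, Trav15-1-dv6-1, a segment that can also join to delta chains, fell from a WT mean of 7.48 to 2.88, and the pseudogene Trav11n fell from 4.80 to 1.29. The remaining alpha calls were Trav12-3, Trav7n-5, Trav7d-5, Trav10n, Trav6-7-dv9, Trav9n-1 and Trav14n-3, with WT means 1.45-fold to 2.28-fold above those of Cebpa_KO. The beta calls were Trbv3 and Trbv4. Trbv3 stood at 331, 270 and 271 in WT libraries, against 208 and 205 in Cebpa_KO ones (log2 difference -0.49, limma adjusted p = 0.0405). Trbv4 stood at 104, 138 and 91.2 in WT libraries, against 67.1 and 65.6 in Cebpa_KO ones. Both are variable genes near the start of the beta locus. By stretch of the alpha locus, 0 of 8 tested segments in the first stretch, 3 of 36 D, 7 of 30 N and 5 of 42 in the last stretch fell. Of all tested genes, 9.82% were called lower. The D calls Trav7d-5, Trav14d-1 and Trav4d-4 share models with the N calls Trav7n-5, Trav14n-1 and Trav4n-4. The D and N counts are therefore not separate, and differences between stretches were not tested.

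The calls depended on single libraries. Leaving out Cebpa_KO replicate 1 or Cebpa_KO replicate 2 leaves 1 library in that group. The median log2 difference of the segments was then -0.36 and -0.41. In either setting the calls were lost in the segments, and nearly all were lost over the whole table. The count of segments called lower was 8 without WT replicate 1 and 9 without WT replicate 2. Without WT replicate 3 it was 23, which included all 17. Of all tested genes, 6.32%, 2.44% and 11.5% were called lower in these 3 settings. Array weights gave 29 segments, with 15.0% of all tested genes called lower, and no filter gave 5, with 1.64%.

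Relative to the total of their chain, few segments differed between the groups. In the fit of shares, 6 segments were higher and 2 lower in Cebpa_KO of the 139 tested. This fit divides every gene by the summed segments of the chain, which moves the whole table. Relative to summed Trav, 33.0% of all tested genes were called higher and 1.92% lower, and relative to summed Trbv, 27.3% were called higher and 3.46% lower. The segments higher in share were Trav7-3, Trav3-4, the pseudogene Trav20, Trav1, Trav5-4 and Trbv23. Those lower in share were Trav12-2 and Trav11n. Trav12-2 took 3.91%, 3.97% and 3.29% of alpha usage in WT libraries, against 2.48% and 2.57% in Cebpa_KO ones (log2 difference -0.55, limma adjusted p = 0.0296). Trav7-3 took 0.730%, 0.800% and 0.721% in WT libraries, against 1.19% and 1.17% in Cebpa_KO ones (log2 difference 0.63, limma adjusted p = 0.0207). Its level was 25.9 to 28.9 in WT libraries, against 29.8 and 31.4 in Cebpa_KO ones, a log2 difference of 0.13 that did not pass. Trbv23 took 0.753% to 0.907% in WT libraries, against 1.29% and 1.07% in Cebpa_KO ones. Without either Cebpa_KO library, or without WT replicate 1, 0 segments were called higher in share. Without Cebpa_KO replicate 1, 3.61% of all tested genes were called higher relative to summed Trav and 0.955% relative to summed Trbv. Without Cebpa_KO replicate 2 these were 9.48% and 0.0377%, and without WT replicate 1 they were 14.9% and 15.7%. Without WT replicate 3, 11 were higher and 4 lower, and 7 of the 8 calls remained. Of all tested genes, 31.2% were then called higher and 2.65% lower relative to summed Trav. Relative to summed Trbv these were 28.7% and 4.18%. Without WT replicate 2, 10 were higher and 3 lower. In that setting 41.0% of all tested genes were called higher and 1.54% lower relative to summed Trav. Relative to summed Trbv these were 25.4% and 2.07%.

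Trav1 and Trav11 are the segments of the invariant receptors of MAIT and NKT cells. Trav1 (chr14:52665385-52666333) took 0.523%, 0.313% and 0.608% of alpha usage in WT libraries, against 0.859% and 1.01% in Cebpa_KO ones, and its share rose, with a log2 difference of 0.96 (limma adjusted p = 0.0393). Its level was 20.6, 10.1 and 24.3 in WT libraries, against 21.5 and 27.3 in Cebpa_KO ones, which overlapped. Trav11 and Trav11d had shares of 0.150% to 0.347% and of 0.155% to 0.345% over the 5 libraries, with overlapping groups. These copies had no mismatch over 250 compared bases, so their values are not separate measurements. Traj33, the joining segment of the MAIT receptor, stood at 98.9 to 105 in WT libraries, against 74.0 and 99.3 in Cebpa_KO ones. Traj18, that of the NKT receptor, stood at 105 to 164 in WT libraries, against 105 and 96.1 in Cebpa_KO ones. Neither was called, and Zbtb16, the transcription factor that marks both cell types, did not exceed 0.238. Klrb1c, which encodes NK1.1, fell from a WT mean of 35.0 to 10.4. Slamf6, another marker listed for these cells, had a WT mean of 166 and a Cebpa_KO mean of 181. Its log2 difference of 0.13 was not called (limma adjusted p = 0.466). Klrb1b and Klrb1 did not exceed 0.343 and 0.270. The 5 listed genes, mostly Slamf6, summed to 223, 187 and 194 in WT libraries, against 203 and 180 in Cebpa_KO ones.

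Diversity was summarised as the effective number of segments, the number of equally used segments that would give the same Shannon entropy. For Trav it was 77.1, 78.6 and 80.5 in WT libraries, against 84.3 and 81.9 in Cebpa_KO ones. The Cebpa_KO values lay above all WT values, by 4.37 on the mean, with an exact permutation p = 0.2 (two-sided, 10 splits). With copies summed the difference was 1.74, and over families it was 0.53. For Trbv the effective number was 16.8, 17.4 and 16.3 in WT libraries, against 16.7 and 16.8 in Cebpa_KO ones, which overlapped (exact permutation p = 0.8). Without WT replicate 3 the differences were 5.24 for Trav and -0.32 for Trbv.

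Libraries of the same genotype did not always share more usage than libraries of different genotype. The percentage of alpha usage that differed between 2 libraries (the summed gains of share from 1 library to the other) was 15.0% to 18.0% for the 3 WT pairs and 8.24% for the Cebpa_KO pair. For the 6 pairs between groups it was 12.8% to 16.2%. For beta it was 8.32% to 12.0% within WT, 4.34% between the Cebpa_KO libraries and 7.48% to 12.0% between groups. The highest value within WT came from WT replicates 2 and 3 for both chains. For alpha, WT replicates 1 and 3 gave the lowest value within WT, 15.0%. For beta, both pairs with WT replicate 3 were above the remaining WT pair. Without WT replicate 3, that pair differed by 16.0% for alpha, against 13.3% to 16.2% between groups, and by 8.32% for beta, against 7.48% to 9.64%.

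Single segments stood out in single WT libraries. Trav7-6 (chr14:53954173-53954748) stood at 125 in WT replicate 3 and at 14.6 to 25.2 in the other 4 libraries. Its share there was 3.13%, against 0.574% to 0.682%. Trav7d-6 and Trav7n-6, which differ from it in the bases shown above, were not raised in that library, with 21.4 for each. These copies had no mismatch with each other over 250 compared bases, so their values are not separate measurements. Trav4-2 stood at 80.6 in WT replicate 3 and at 5.86 to 12.8 elsewhere. Trbv13-3 stood at 338 there and at 122 to 158 elsewhere, a share of 9.20% against 4.25% to 4.91%. Traj49 was at 264 in that library and at 83.9 to 106 in the others. In WT replicate 2, Trbv26 reached a share of 5.36%, against 1.95% to 3.27% in the others, and Trbv30 a level of 44.9 against 9.21 to 12.3. Trav3d-3 and Trav3n-3, which share 1 model, were highest in WT replicate 1, with shares of 3.36% and 3.33% against at most 2.06% in the others. In Cebpa_KO replicate 2, Trbv12-1 had its lowest share, 4.03%, against 6.42% to 9.13% in the others, and its groups did not overlap in level (339, 214 and 288 against 180 and 111) but it was not called (limma adjusted p = 0.0644).

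The joining and diversity segments were measured in the same tables. Of 59 tested Traj segments, 11 were lower and 0 higher in the fit of levels, with a median difference of -0.52. The 11 are 18.6% of the tested Traj segments, against 9.82% of all tested genes called lower. Traj27 fell from a WT mean of 383 to 219, and Traj40 from 212 to 126. Of 14 Trbj segments, 8 were lower and 0 higher, with a median of -0.40, and the 8 are 57.1% of the tested Trbj segments, against the same 9.82%. Trbj1-7 had the largest difference, with 170, 170 and 117 in WT libraries, against 79.5 and 67.4 in Cebpa_KO ones (log2 -1.03), and Trbj2-7, the Trbj segment with the highest level, fell from 1100 to 782. Neither of the 2 Trbd segments was called, with differences of -0.21 and -0.23.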

How the data were processed

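RNA-seq was made from 5 libraries of sorted Tfr cells, 3 WT and 2 Cebpa_KO, with a low-input full-length cDNA kit and tagmentation per the labels' protocols. Alignment tools and build, per the submitters' processing notes, were STAR 2.7.11b and StringTie 2.1.3b on mm39. The annotation release, strand setting and handling of reads that fit several segments are not stated. Per the file headers, the authors deposited coverage, FPKM and TPM per gene. The deposited TPM column is treated as a score, since it lists each signal as assembled and as annotated loci, and only annotated rows were used. The FPKM values deposited by the authors served as an alternative, and the deposited coverage, a signal per base, was divided by FPKM to give depth. No counts are in these tables, so no count model, interval or floor was used.

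Rows with the same gene ID were added up and each library divided by a median-ratio factor (0.984 to 1.04). Genes at a TPM of 1 or more in 2 or more libraries (16254) entered a test of log2(scaled TPM + 1), which understates changes of low genes, with limma 3.58.1 in R 4.3.3 (intensity trend, Benjamini-Hochberg, threshold 0.05). For shares, each gene was divided by the summed Trav or Trbv TPM of its library instead. Single values per library had a two-sided exact permutation test. Tested on simulated data of the same 3 against 2 design (Cebpa_KO against WT, 15815 genes), the fit called 59 of 100 genes shifted by a log2 of 1, 90 of 100 shifted by 2, and 12 unshifted genes. The shifted genes were drawn only from those with a mean log2(scaled TPM + 1) above 3, so segments of lower level were not covered.

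The members, lists and tests were chosen with earlier results of these data known. Named segments are, per chain, the 8 of highest mean share and the 5 of widest range of share, up to 8 called per direction in level and 5 in share, Trav1, Trav11, Trav11d, Trbv31 and fixed gene lists. Trav14-1, Trav7d-6, Trav7n-6, Trbv30, Trbv24, Trav23, the called segments beyond the 8 and Hspa1a were chosen after their values were seen. Gene models and sequences came from GENCODE M21, which is on another build (GRCm38) and gave no coordinates. All 165 segments had a model. Alternatives were other pseudocounts (0.1 and 5), filters, scalings and weights, a replicate block, summed copies and each library left out.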

Additional observations from a re-analysis of the deposited data

How the results depend on the processing

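Directions of the summed levels held in every alternative tried: log2 differences were -0.61 to -0.46 for Trav and -0.41 to -0.32 for Trbv when 1 library was left out. Segments called lower in level numbered 5 with no filter, 29 with array weights and 0 to 23 with 1 library left out. Segments called higher in level numbered 0 in every setting. Shares called higher numbered 1 with no filter and 0 to 11 with 1 library left out. Shares called lower numbered 0 with no filter, 0 with copies summed, 6 with the replicate block and 0 to 4 with 1 library left out. The difference in the effective number of Trav segments was 1.74 with copies summed, 0.53 over families and 3.13 to 5.60 with 1 library left out. For Trbv it was 0.28 over families and -0.32 to 0.23 with 1 library left out. Replicates 1 and 2 of the groups share only a number: the deviations of same-numbered libraries had a correlation of 0.0709 over genes. The replicate block gave 15 segments lower in level and 9 higher in share. With it, 6.46% of all tested genes were called lower in level. Relative to summed Trav and summed Trbv, 24.4% and 24.7% were called higher, and 2.61% and 3.63% lower. With no filter these were 6.60% and 7.43% higher, and 0.342% and 0.692% lower. With copies summed, 1.91% and 3.45% were called lower. Among the named segments, 489 values kept direction and side of the threshold, 63 lost a call, 5 gained one and 6 changed sign. The differences of Trav7-4 were 0.025 with array weights, 0.11 with the replicate block and -0.53 to 0.22 with 1 library left out, and those of Trbv5 were -0.088 to 0.062 with 1 library left out, none of them called. The cause of these shifts was not tested. Segments under a TPM of 1, identical copies and groups of 3 and 2 libraries limit what can be resolved.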

Other observations

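Segments of the gamma and delta chains were near the lower end of the tables. The 7 Trgv segments summed to between 0.782 and 4.14 in the 5 libraries, and Trdc, the delta constant gene, ranged from 0.875 to 2.62 over the 5 libraries. Trdv1 was the exception, at 13.9, 14.2 and 15.3 in WT libraries against 21.1 and 23.1 in Cebpa_KO ones, and it rose, with a log2 difference of 0.58 (limma adjusted p = 0.0234). Trdv2-1 fell from a WT mean of 2.29 to 0.954. Trbc1 made up 34.1% to 37.2% of the beta constant RNA in WT and 36.3% and 36.2% in Cebpa_KO.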
